A study of Rattus norvegicus with 18 samples.

Results

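The early fracture callus of old rats was set against that of young rats, array by array, at 3 days, 1 week and 2 weeks after a femoral fracture. All animals were intact female Sprague-Dawley rats. Those studied after fracture received an intramedullary rod and a closed mid-shaft fracture of the left femur. The young rats were 6 weeks old at surgery, and the old rats, called older from here on, were 52 weeks old. RNA came from the middle part of the femur, which held callus, cortical bone and marrow, and RNA of 2 rats was pooled for each Affymetrix rat genome array. Members were chosen by age and time alone, which gave 3 older and 3 young arrays, 6 of the 18 arrays in the series. Adult rats, 26 weeks old, had 1 array at each of the same times and entered the fit only to estimate the spread. The older and young no-fracture (0 time) arrays, 1 of each age, give the difference in bone before fracture. The paper describes the 0 time animals as sham controls. Young arrays of 4 and 6 weeks were left out because their 3' to 5' ratios were raised, with Gapdh ratios of 3.48 and 6.57.

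Fracture repair in a long bone passes from a clot and inflammation to cartilage and woven bone, and then to removal of the calcified cartilage by osteoclasts, large cells of the monocyte line that secrete acid and proteases. Young rats of this age are still growing, so that bone formation and resorption already run at a high rate in the femur before any fracture.

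The 6 arrays were alike in scale. The trimmed mean signal was 501 on every array, the median signal ran from 152 to 171, and 3882 to 4026 probe sets had a signal of at least 200. Arrays of the same time correlated at r = 0.970, 0.968 and 0.963 across all probe sets at 3 days, 1 week and 2 weeks. The Gapdh 3' to 5' ratio was 1.33 to 1.77 on the young arrays and 1.20 to 1.33 on the older arrays. The beta-actin ratio was 1.88 to 2.06 on the young arrays and 1.70 to 1.71 on the older arrays, so that these ranges did not overlap. The part of this difference in the results below was not tested. Labels of the tissue were borne out by its markers, since Col1a1, the main collagen of bone, ran from 18093 to 29888 on all 6 arrays. Nothing in the labels says that arrays of different times are repeats of one another, and the p-values below measure the spread between arrays once age and time are taken out.

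No probe set passed the test for older minus young over the first 2 weeks. The lowest adjusted p by limma over 8740 probe sets was 0.219, and the called share was 0%. At an unadjusted p under 0.05 there were 221 probe sets higher in older rats (2.53%) and 327 lower (3.74%). This balance depended on the scaling, with 262 higher and 283 lower after quantile normalization and 306 higher and 229 lower after scaling to the median. Signals of the age groups did not overlap for 220 probe sets higher in older rats (2.52%) and 310 lower (3.55%). Older rats were higher at all 3 times for 770 probe sets (8.81%) and lower at all 3 times for 1015 (11.6%). These shares are the background against which every count below is read. The mean difference was at least 2-fold for 79 probe sets higher in older rats (0.904%) and 136 lower (1.56%), and a difference of at least 2-fold at all 3 times was seen for 8 probe sets higher in older rats (0.0915%) and 15 lower (0.172%). With 1 array per age at a single time, differences of at least 2-fold toward older rats made up 3.64% of probe sets at 3 days, 4.61% at 1 week and 3.64% at 2 weeks. Those toward young rats made up 4.26%, 4.84% and 6.74%. In simulated data of the same design, 27.0% of 2-fold changes and 78.5% of 4-fold changes were found. These changes were placed only in probe sets with a mean signal above 200, with normal noise. The shares therefore do not hold for dimmer probe sets, which were not simulated with a change.

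With the test restricted to 3974 brighter probe sets, those whose mean signal reached 200, 7 passed at an adjusted p under 0.05 by limma. Lower in older rats were 6 of them (0.151%), namely both probe sets of Car2, Bglap, Tfrc, a probe set with several gene symbols and 1 with no gene name. Higher in older rats was 1 (0.0252%), a probe set of Gsta1. The mean was taken over the arrays of all 3 ages, so a probe set low at 1 age could enter through the others. This was so for Gsta1, at 179.5, 121.9 and 57.9 in young rats. In older rats it was so for the dimmer Car2 probe set, at 7.6, 78.9 and 164, and for that with several symbols, at 28.0, 23.3 and 133. Tfrc, at 71.8, 202 and 288 in older rats, was likewise carried past the cutoff by its higher signals at the other ages. These calls therefore rest on a filter that they passed through the age where they are high. The 7 that passed are described with their groups below, and the other genes are given as values that did not pass.

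Of the 37 gene lists read here, that of the osteoclast had the lowest median difference. Of 15 listed genes 9 were measured, and 8 of the 9 were lower in older rats at all 3 times, against 11.6% of all probe sets. The same 8 had an unadjusted p under 0.05, against 3.74%. The median difference of the 9 was -1.43 on the log2 scale, while that of all 8740 probe sets was 0.00. By time the median was -1.73 at 3 days, -1.48 at 1 week and -0.45 at 2 weeks, so that the gap was widest at the start and narrowed as the callus matured. In bulk tissue such as this, fewer cells of a type and less RNA per cell cannot be told apart.

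**Figure D1:**
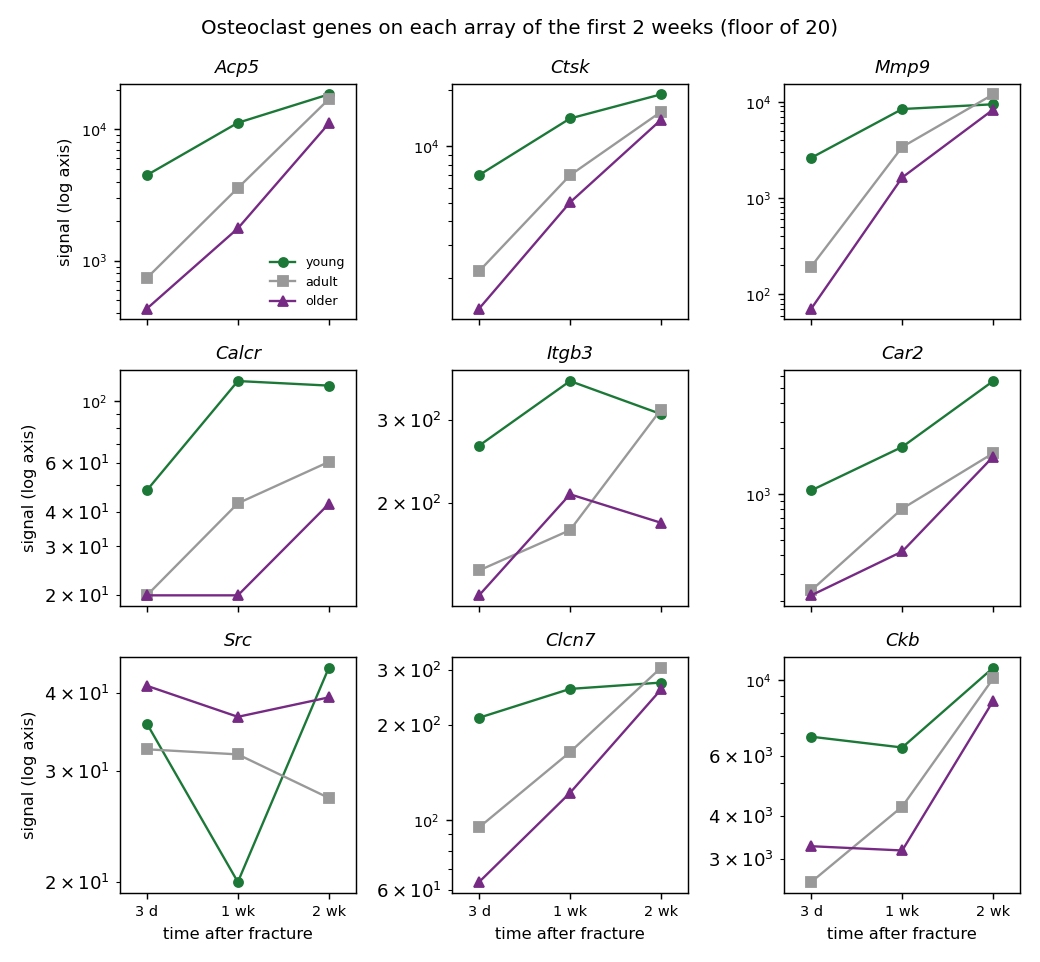
Signal of 9 osteoclast genes (log axis, signals under 20 drawn at 20) against time after fracture, 1 point per array, for young, adult and older rats. Older arrays lie under young arrays at all 3 times for all genes shown except Src, and Acp5 of older rats climbs from 431 at 3 days to 11078 at 2 weeks.

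Acp5, Ctsk and Mmp9 are enzymes that osteoclasts secrete. Acp5, the tartrate-resistant acid phosphatase used as a stain for osteoclasts, had signals of 4479, 11208 and 18449 in young rats at 3 days, 1 week and 2 weeks and 431, 1761 and 11078 in older rats. Ctsk, the protease that cuts bone collagen, was at 7028, 14051 and 18875 in young rats and 1373, 5037 and 13827 in older rats. Both climbed with time at either age, and the older level at 1 week was below the young level at 3 days. The mean log2 difference was -2.26 ± 0.56 (SE) for Acp5 and -1.43 ± 0.37 for Ctsk, with adjusted p = 0.766 for each by limma. Mmp9, a gelatinase of osteoclasts and neutrophils, went from 2623 to 9450 in young rats and from 70.8 to 8330 in older rats, so that the gap of -5.21 log2 at 3 days had shrunk to -0.18 at 2 weeks.

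Car2, the carbonic anhydrase that supplies protons for acid secretion and is also abundant in red cells, had signals of 1063, 2048 and 5536 in young rats against 218, 423 and 1769 in older rats. Its differences at the 3 times, -2.29, -2.28 and -1.65, were much alike. The mean was -2.07 ± 0.23, a 4.20-fold lower level in older rats, with adjusted p = 0.334 over all probe sets and 0.0138 over the brighter ones. A second, dimmer probe set of Car2 had a difference of -2.79 and passed the same restricted test with adjusted p = 0.0105. Clcn7, the chloride channel of the resorbing membrane, was lower by 1.73 log2 at 3 days and differed by -0.07 at 2 weeks. Atp6v0c, a subunit of the proton pump, differed by -0.41 ± 0.08 with signals of 9813, 7490 and 12079 in young rats and 6817, 6254 and 8848 in older rats.

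Receptors and other marker genes of the cell had smaller signals. Calcr, the calcitonin receptor, was at 47.8, 118 and 114 in young rats, and at 8.2, 12.2 and 42.7 in older rats. The first 2 older values lie under the floor of 20, so that the difference of -1.75 understates the gap, and the groups did not overlap. Itgb3, the integrin chain with which osteoclasts hold on to bone, was at 265, 363 and 309 in young rats and 127, 208 and 181 in older rats, again with no overlap. Ckb, the brain form of creatine kinase, differed by -0.80 ± 0.27. Src, a kinase needed for the ruffled border, was at 15.5 to 43.8 in young and 36.6 to 41.0 in older rats and was the only member of the 9 with a higher mean, by 0.31 ± 0.27.

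This count rests on the pairing by time. Without the time term, 2 of the 9 had an unadjusted p under 0.05, and 2 had one with the 3-day or the 1-week arrays left out, while 8 of 9 had a lower mean in each of these fits. Measured as the change from the own 0 time array, 5 of the 9 were lower and 4 higher. Without fracture 6 of the 9 were lower in the older array, 2 of them, Acp5 and Ctsk, by at least 2-fold, and 3 were higher. Over 20 settings the median ran from -1.91 to -0.96. Other cells of the marrow moved beside these genes. The summed signal of 8 granulocyte genes was 1984 to 8475 in young and 972 to 2147 in older rats, and that of 12 erythroid genes was 12927 to 73554 in young and 10884 to 14392 in older rats. Their part in the osteoclast values was not tested. The 14 measured genes of monocytes and macrophages, the lineage that osteoclasts come from, had a median difference of -0.05, and none was lower at all 3 times.

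Start sites of 6 of the 9 osteoclast genes were found in the RefSeq promoter table (build GRCr8), 7 sites in all. They were searched over 250 bases before the start, on both strands, for the E-boxes CACGTG and CATGTG, letters that the osteoclast factor Mitf is known to bind. A match was found before 3 of the 7 sites, those of Acp5, Ctsk and Clcn7, and before 17.1% of all 33469 start sites in the table. These 3 are shown because they hold a match, which the capitals mark. Calcr, Ckb, Src and a second start site of Acp5 had none, and Mmp9, Car2 and Itgb3 were not searched. Acp5 is at chr8:28943930-28944179 on the minus strand, Ctsk at chr2:185747298-185747547 on the plus strand and Clcn7 at chr10:14656011-14656260 on the plus strand.
Acp5: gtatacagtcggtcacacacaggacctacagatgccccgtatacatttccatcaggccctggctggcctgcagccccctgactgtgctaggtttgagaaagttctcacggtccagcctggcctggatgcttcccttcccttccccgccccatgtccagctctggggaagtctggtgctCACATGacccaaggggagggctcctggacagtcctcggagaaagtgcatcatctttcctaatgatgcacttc
Ctsk: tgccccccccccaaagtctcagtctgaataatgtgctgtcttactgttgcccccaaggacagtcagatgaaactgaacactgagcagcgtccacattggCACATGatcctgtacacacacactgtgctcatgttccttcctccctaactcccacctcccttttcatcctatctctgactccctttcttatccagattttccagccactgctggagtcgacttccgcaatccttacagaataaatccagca
Clcn7: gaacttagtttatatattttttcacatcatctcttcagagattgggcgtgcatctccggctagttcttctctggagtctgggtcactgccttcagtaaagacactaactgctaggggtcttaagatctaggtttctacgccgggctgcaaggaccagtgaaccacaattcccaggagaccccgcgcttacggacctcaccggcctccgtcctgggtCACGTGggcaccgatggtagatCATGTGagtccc
The match of Acp5 begins 72 bases before the start and that of Ctsk 151 bases before it, while those of Clcn7 begin 34 and 12 bases before it. A match describes the letters only, and binding was not measured.

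Among 14 bone matrix and osteoblast genes, 3 had a lower level in older rats at an unadjusted p under 0.05, and the main collagen was nearly level. Bglap, osteocalcin, made by mature osteoblasts, was at 9691, 11944 and 23400 in young rats and 3759, 3441 and 11386 in older rats. Its difference of -1.40 ± 0.17 passed the restricted test with adjusted p = 0.0138 and had adjusted p = 0.376 over all probe sets. Phex, a protein of osteoblasts and osteocytes that governs phosphate, was at 158, 317 and 396 in young and 101, 95.8 and 123 in older rats, without overlap. Spp1, osteopontin, which osteoblasts and osteoclasts both secrete, was at 13444, 11789 and 19625 in young and 9599, 9112 and 10979 in older rats, also without overlap. In contrast Col1a1 differed by -0.21 ± 0.18 and Alpl, alkaline phosphatase, by -0.07 ± 0.14, with levels of 17560 to 27901 for Alpl in older rats. Of 14 measured genes 4 were lower at all 3 times, 3 had a lower level at an unadjusted p under 0.05 and none a higher one, and the median was -0.15.

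Proteases that open the matrix were lower in part. Of 23 measured proteases and inhibitors 5 were lower at an unadjusted p under 0.05 and none higher, with a median of -0.05. Besides Mmp9 and Ctsk, which the osteoclast list also holds, they included Mmp13, the collagenase of hypertrophic cartilage and osteoblasts, at 3775, 8871 and 12136 in young and 2095, 3492 and 8956 in older rats. Mmp16, a membrane protease, was at 316, 696 and 696 in young and 156, 242 and 383 in older rats, a difference of -1.13 ± 0.19. Both were lower in older rats at all 3 times. Mmp14, the widely expressed membrane collagenase, differed by 0.06 ± 0.18.

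Tfrc and Slc40a1 carry iron into and out of cells. Tfrc, the transferrin receptor, which takes up iron in red cell precursors and in other cells with a high demand, was at 223, 730 and 996 in young rats and 71.8, 202 and 288 in older rats. The older levels were close to a constant share of the young ones, with differences of -1.63, -1.85 and -1.79. The mean of -1.76 ± 0.21 passed the restricted test with adjusted p = 0.0272 by limma. Its entry into that test leaned on the brighter young arrays. Slc40a1, ferroportin, which carries iron out of macrophages, was at 631, 1349 and 1033 in young and 199, 543 and 617 in older rats, without overlap and with adjusted p = 0.727 by limma.

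**Figure D2:**
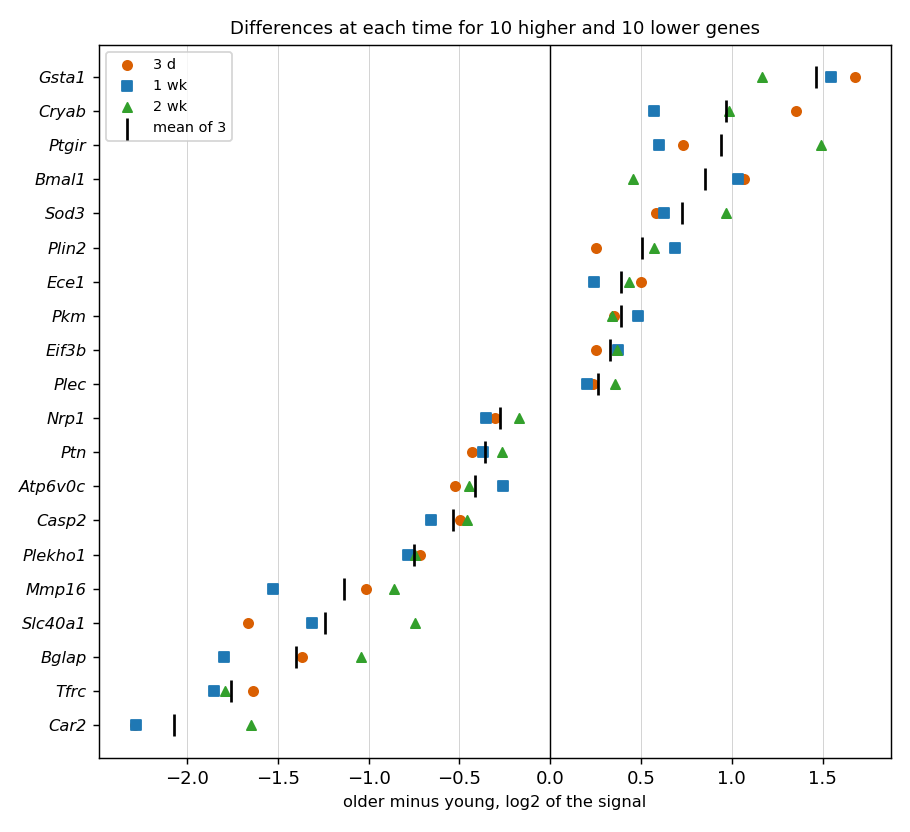
Log2 difference, older minus young, at 3 days, 1 week and 2 weeks for 10 genes higher and 10 genes lower in older rats at all 3 times, with the mean as a bar. Car2 has the lowest mean at -2.07 and Gsta1 the highest at 1.46, and no point crosses 0. Gsta1 and Bmal1 met the brightness cutoff of the choice through their older arrays, and Tfrc through its young arrays.

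The 10 genes of smallest p in each direction, taken among brighter genes with 1 direction at all times, held many small and steady differences. Brightness was here the mean signal of the young and older arrays, with the cutoff at 200. Gsta1, at 175, 184 and 103 in young rats, and Bmal1, at 115, 175 and 215, were carried past it by their older signals. Tfrc, at 71.8, 202 and 288 in older rats, was carried past it by its young signals. The places of Gsta1, Bmal1 and Tfrc therefore rest on the age where they are high. Lower in older rats, besides Car2, Bglap, Tfrc, Mmp16, Slc40a1 and Atp6v0c, were Plekho1, an adaptor protein, by 0.75 ± 0.11 log2, Casp2, a caspase, by 0.54 ± 0.06, Ptn, pleiotrophin, a secreted growth factor of bone and nerve, by 0.36 ± 0.06, and Nrp1, a receptor for semaphorins and vascular growth factor, by 0.27 ± 0.05. Higher in older rats were Gsta1, Cryab, Ptgir, Bmal1, Sod3, Plin2, Ece1, Pkm, Eif3b and Plec. Of these 10 the last 5, Plin2 to Plec in that order, differed by 0.50, 0.39, 0.39, 0.33 and 0.27. Their differences were thus small, and the steady direction was a condition of the choice. A second, dimmer probe set went the other way for Plin2, at -0.65, and for Plec, at -0.14. None of the 20 passed over all probe sets, with adjusted p from 0.334 to 0.766 by limma.

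Antioxidant genes held the gene with the highest mean of the 10 higher ones as well as a far lower one. Gsta1, a glutathione transferase, was at 175, 184 and 103 in young rats and 558, 537 and 232 in older rats, a difference of 1.46 ± 0.23. Its 3 probe sets gave 1.24 to 1.77, the highest of which passed the restricted test with adjusted p = 0.0338. Related transferases share much of their sequence, and the probe sets may not tell them apart. Sod3, the superoxide dismutase of the extracellular space, was at 433, 528 and 391 in young and 649, 813 and 764 in older rats, without overlap. Mt3, a metallothionein, went the other way, at 1008, 2852 and 3495 in young and 33.1, 366 and 2460 in older rats, with the wide early gap seen for Mmp9. Of 34 measured antioxidant genes 4 were higher and 1 lower at an unadjusted p under 0.05, with a median of 0.07.

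Cryab and Hspb1, small heat shock proteins, which hold unfolded proteins and are plentiful in muscle, were higher without overlap. Cryab was at 3138, 3123 and 3367 in young rats and 8009, 4648 and 6653 in older rats, a difference of 0.97 ± 0.18. Hspb1 was at 5330, 5790 and 3142 in young and 11760, 8158 and 5996 in older rats, and its 4 probe sets gave 0.19 to 1.03. Without fracture, with 1 array per age, Cryab was already higher in older rats by 0.75 and Hspb1 by 1.08. Hspa1a, the inducible 70-kilodalton form, was at 213, 264 and 110 in young and 307, 559 and 350 in older rats. Of 27 measured chaperones these 3 were the members with an unadjusted p under 0.05, all higher, and the median of the list was 0.03.

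Muscle genes differed in some members. Des, desmin of the muscle cytoskeleton, was at 3937, 3420 and 1191 in young rats and 6932, 6531 and 4630 in older rats, without overlap and with adjusted p = 0.766. Myf6, a transcription factor of muscle fibres, was at 430, 425 and 288 in young and 830, 1265 and 454 in older rats. Myh4, the fast myosin, was at 7990 in young and 1325 in older rats at 3 days and was level at 2 weeks, at 10803 and 11773. Of 42 measured muscle genes 10 were higher at all 3 times and none lower, 2 had an unadjusted p under 0.05, and the median was 0.12. By time the median was 0.08, -0.08 and 0.52, and at 2 weeks 39 of 42 were higher. The median of the means was -0.05 without the young 2-week array and 0.00 without the 2-week arrays, and without the young 3-day array 8 had such a p. The summed signal of the 42 was 92505 to 175118 in young and 92288 to 235670 in older rats, so that the ranges of the ages overlapped. The part of muscle in the heat shock values was not tested.

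**Figure D3:**
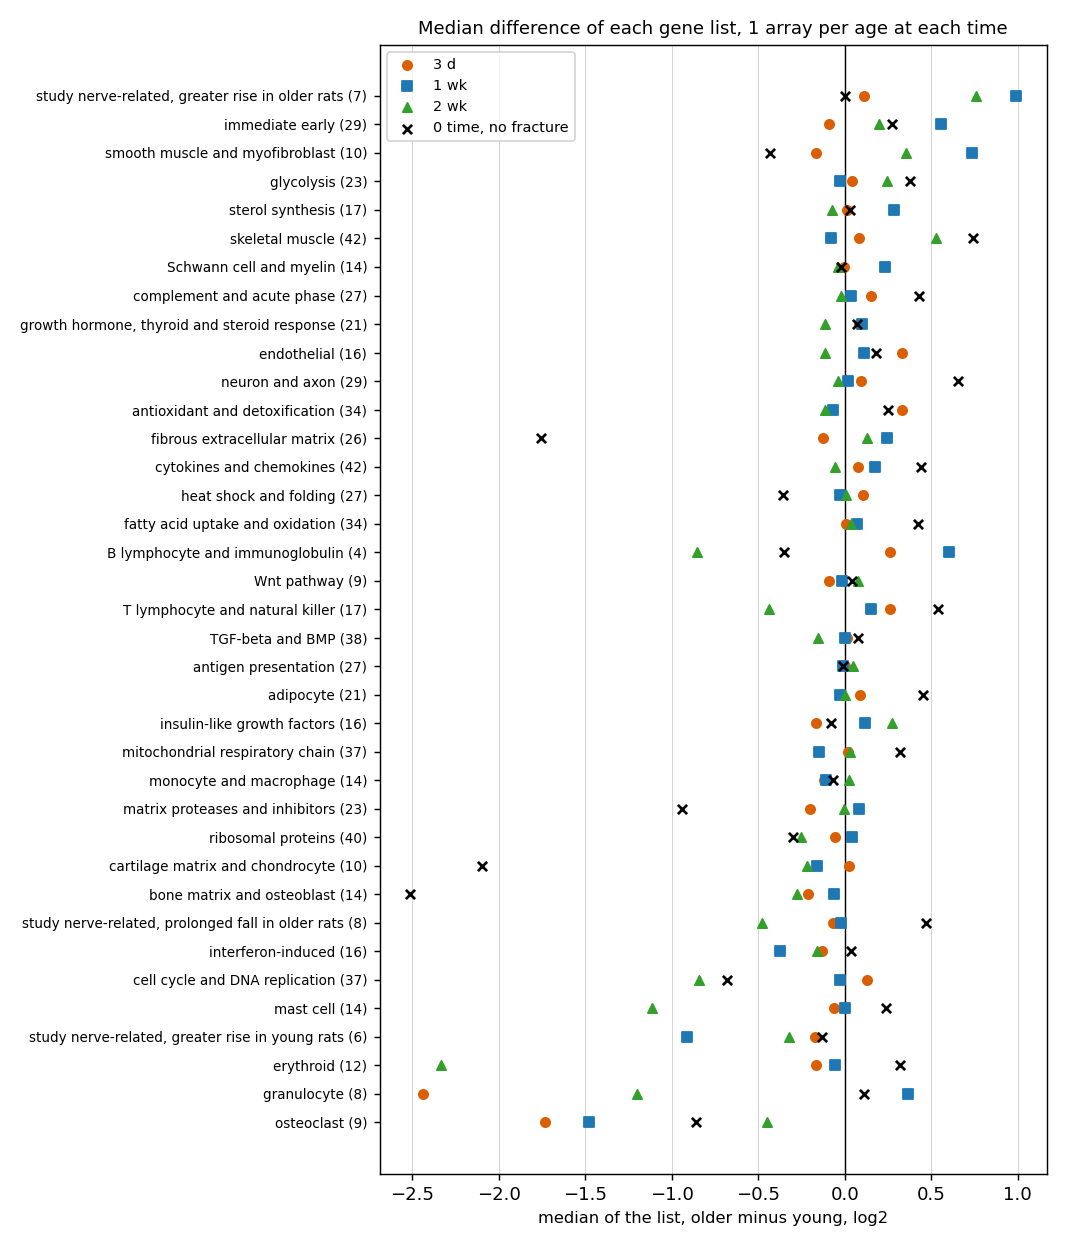
Median log2 difference, older minus young, of 37 gene lists at 3 days, 1 week and 2 weeks after fracture and without fracture (0 time), 1 array per age at each time, with the number of measured genes in brackets. The osteoclast, granulocyte and erythroid lists lie lowest, and the bone and cartilage lists stand near 0 after fracture but at -2.51 and -2.10 at 0 time.

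Cartilage genes had a median difference of 0.02 at 3 days, -0.16 at 1 week and -0.22 at 2 weeks. Col2a1, the collagen of cartilage, was at 773, 11491 and 15004 in young and 415, 7365 and 13222 in older rats. Col10a1, the collagen of hypertrophic cartilage, was at 76.3 in young rats and 6.3, below the floor, in older rats at 3 days, and at 5009 and 5501 at 2 weeks. Neither had an unadjusted p under 0.05, and for these 2 collagens, unlike the list, the gap was widest at 3 days. Col11a1 was lower, by 0.57 ± 0.16 log2, and Fmod, fibromodulin, which binds collagen fibrils, was higher at all 3 times and most at 2 weeks, with a mean of 0.74 ± 0.23, each with adjusted p = 0.766. Of 10 measured genes 3 were lower and 1 higher at all 3 times, with a median of -0.12.

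Most matrix genes were far lower in the older array without fracture, while the list medians were near 0 in the callus. At 0 time all 14 bone matrix genes were at least 2-fold lower in the older array, as were 6 of 10 cartilage genes and 19 of 26 genes of the fibrous matrix, where 10.6% of all probe sets were that much lower and 14.9% that much higher. Col1a1 was at 35960 in young and 3711 in older bone, Acan, the core protein of aggrecan, at 521 and 18.8, and Fn1, fibronectin, at 5332 and 992. In the callus Fn1 was at 9944 to 10192 in young and 8394 to 12943 in older rats. Medians of the 3 lists were -2.51, -2.10 and -1.75 at 0 time and -0.15, -0.12 and 0.06 over the first 2 weeks. The 0 time values come from 1 array per age and have no replicate. Other tissues moved beside them, with muscle genes higher in the older 0 time array for 39 of 42 (median 0.74) and erythroid genes for 9 of 12 (median 0.32), and their part in the matrix values was not tested.

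**Figure D4:**
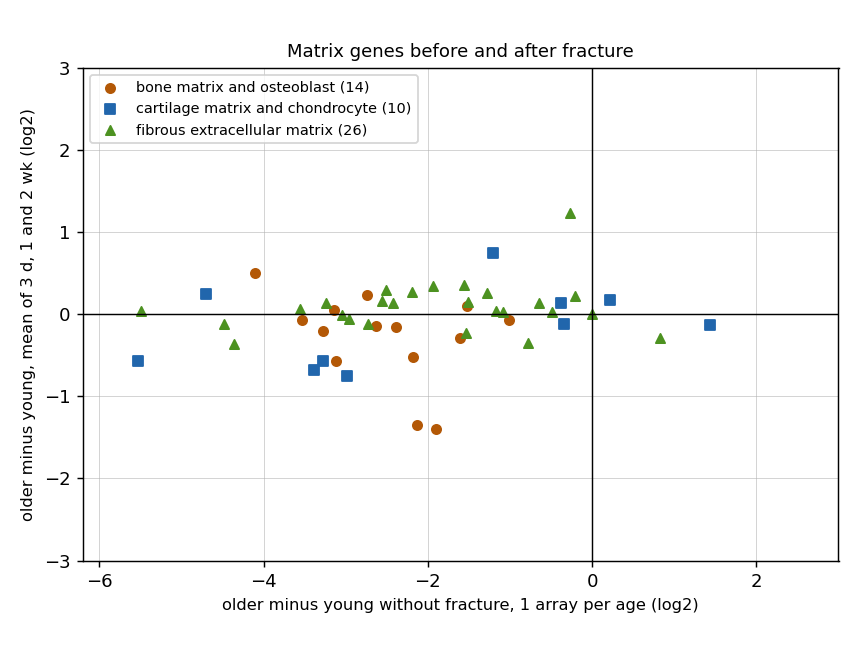
Older minus young difference (log2) of 50 matrix genes without fracture, 1 array per age (horizontal), and as the mean of 3 days, 1 and 2 weeks after fracture (vertical). Points of the bone, cartilage and fibrous matrix spread far to the left along the horizontal axis, and most lie near 0 on the vertical one, with Bglap at -1.40, Phex at -1.35 and Thbs4 at 1.23 as the farthest.

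Over 2508 brighter genes the difference had an SD of 0.972 at 0 time and 0.357 over the first 2 weeks, where it is a mean of 3 arrays per age, and single times had SDs of 0.518 to 0.567. Across these genes the early difference and the 0 time difference, which share no array, had r = 0.24. Genes are not independent replicates, and this value is a description. Osteoclast genes were lower at both stages for Acp5 and Ctsk, with 0 time differences of -3.46 and -4.47, while Calcr was higher in the older 0 time array by 1.45.

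Red cell and white cell genes of the marrow differed most at single times. Hbb, a globin, was at 11862, 6410 and 32060 in young rats and 6413, 5009 and 7136 in older rats. Alas2, the heme enzyme of red cell precursors, was at 786, 462 and 6788 in young and 672, 432 and 689 in older rats. At 2 weeks the young array stood far above all others, with differences of -2.17 for Hbb, -3.30 for Alas2 and -3.29 for Rhag, a membrane protein of red cells. Of 12 erythroid genes all were lower in older rats at 2 weeks and 10 at 3 days. Lower at all 3 times were 7 (58.3%), against 11.6% of all probe sets, and 1 had an unadjusted p under 0.05. The median was -0.17 at 3 days, -0.06 at 1 week and -2.33 at 2 weeks. The median of the means was -1.03 and ran from -1.59 to -0.19 over the alternatives. Tfrc, unlike the list median, had a like difference at each time. Globin genes are near copies of one another, and their probe sets may share signal.

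Granulocyte genes had their gap at 3 days. S100a8, a calcium-binding protein of neutrophils, was at 3340 in young and 149 in older rats at 3 days and at 521 and 731 at 1 week. S100a9, its partner, was at 2811 and 418 at 3 days and at 594 and 618 at 1 week. Lcn2, lipocalin, was at 637 and 147 at 3 days. The median of 8 measured genes was -2.43 at 3 days, 0.36 at 1 week and -1.20 at 2 weeks, and none of the 8 was lower at all 3 times. S100a9 was the only member with an unadjusted p under 0.05.

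**Figure D5:**
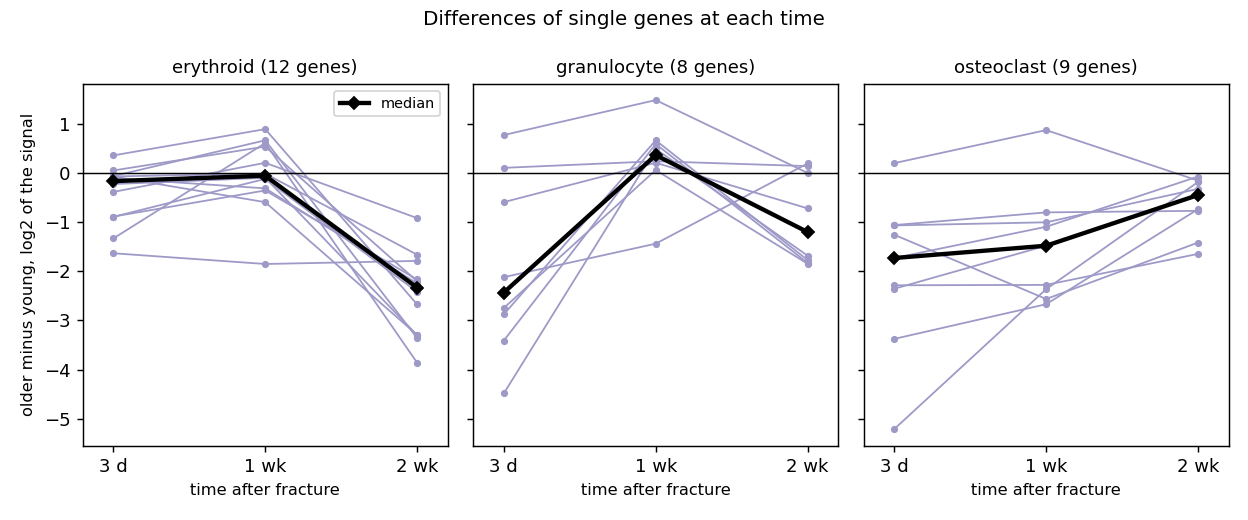
Log2 difference, older minus young, of each erythroid, granulocyte and osteoclast gene at 3 days, 1 week and 2 weeks, with the median in black, from 1 array per age at each time. The erythroid median drops to -2.33 at 2 weeks and the granulocyte median is -2.43 at 3 days. The osteoclast and erythroid medians are negative at all 3 times.

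Of 14 measured mast cell genes 3 were lower in older rats at all 3 times and none higher, and 11 had no single direction. Cpa3, a carboxypeptidase of mast cell granules, was at 54.6, 102 and 673 in young and 16.7, 46.1 and 147 in older rats, and Tpsab1, a tryptase, at 205, 151 and 679 in young and 123, 94.9 and 214 in older rats. These were the 2 of 14 measured genes with an unadjusted p under 0.05. The list had a median of -0.27, and -0.06, 0.00 and -1.11 by time, with the lowest at 2 weeks, where the young array stood above the others. A probe set with several gene symbols, named for no gene here, was at 198, 203 and 895 in young and 28.0, 23.3 and 133 in older rats and passed the restricted test with adjusted p = 0.0138.

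Of 16 measured interferon-induced genes 5 were lower in older rats at all 3 times and none higher, and 3 were lower without overlap and none higher. Of all probe sets 11.6% were lower at all 3 times and 3.55% lower without overlap. Rsad2, an antiviral protein, was at 224, 305 and 3548 in young and 45.1, 59.8 and 192 in older rats, the lowest difference of any list member at -2.96 ± 0.96. Gch1, which makes a cofactor of nitric oxide synthase, was level until 2 weeks and then at 953 in young and 148 in older rats. On the young 2-week array, where Rsad2 and Gch1 were highest, the erythroid genes also stood high. Their part in the interferon values was not tested. Irf1 differed by -0.49 ± 0.24 and had no overlap. The median of the list was -0.16, with 2 lower at an unadjusted p under 0.05. Ccr1, a chemokine receptor of monocytes and osteoclast precursors, was at 311, 506 and 394 in young and 115, 134 and 302 in older rats. Ptgs2, the inducible cyclooxygenase, was at 835, 268 and 36.6 in young and 682, 989 and 151 in older rats, which gave 1.21 ± 0.99. Ptgir, the prostacyclin receptor, was higher without overlap, at 381, 480 and 250 in young and 634, 725 and 702 in older rats. Of 42 cytokine and chemokine genes 3 were higher and 3 lower at an unadjusted p under 0.05, with a median of 0.03.

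Complement and wound proteins were higher in some members, while the list median was 0.15 at 3 days, 0.04 at 1 week and -0.02 at 2 weeks. Clu, clusterin, was at 2833, 3584 and 1480 in young rats and 4043, 8094 and 5425 in older rats, without overlap. C1s, a protease of the first complement component, was at 790 and 784 at 3 days and at 498 and 1399 at 2 weeks. Of 27 measured genes of complement and the acute phase 1 was higher and 1 lower at an unadjusted p under 0.05, and the median was 0.11. Their summed signal was 15958 to 18690 in young and 19034 to 24635 in older rats, and 13954 to 15104 and 14991 to 17450 without Clu, so that the sums then overlapped.

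Nerve-related genes were taken from the 3 lists that the study chose on these samples, so that their direction here is not independent evidence. Of the genes chosen for a greater rise in young rats, 6 of 7 were matched to a probe set, with a median of -0.62 and 1 lower at an unadjusted p under 0.05. That was Ptprz1, a receptor phosphatase that binds pleiotrophin, at 179, 511 and 466 in young and 173, 150 and 222 in older rats. Cdk18, a kinase, was at 144, 356 and 188 in young and 18.2, 33.5 and 233 in older rats. Of the genes chosen for a greater rise in older rats, 7 of 9 were matched to a probe set. They had a median of 0.72 and none had an unadjusted p under 0.05. A probe set on the array for neurexin 1, a gene left unmatched, differed by 0.13 and is not in this median. Chrna1, the acetylcholine receptor subunit of muscle, was at 933, 557 and 283 in young and 1435, 3091 and 480 in older rats. Thbs4, thrombospondin 4, was at 1312, 1908 and 573 in young and 1415, 3662 and 3576 in older rats, and Camk2b, a calcium-dependent kinase, was higher by 0.54 ± 0.22 without overlap. All 8 genes chosen for a prolonged fall in older rats were measured, and their median was -0.16. Nrgn, neurogranin, was the lowest of these with a difference of -1.52 ± 0.56, at 259, 13.1 and 69.3 in young and 34.5, 17.5 and 21.9 in older rats.

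Most other groups lay at the level of all probe sets. Of 37 lists 32 had a median between -0.3 and 0.3. Cell cycle and DNA replication genes had a median of -0.22 over 37 measured genes, with 9 lower and 1 higher at all 3 times. By time their median was 0.13, -0.03 and -0.84, so that the gap lay at 2 weeks, and Hmgb2, a chromatin protein of dividing cells, differed by -1.24 ± 0.39 without overlap. At that time the erythroid and mast cell lists also had their lowest medians, -2.33 and -1.11, and their part in the cell cycle values was not tested. Ribosomal proteins had a median of -0.06 over 40 genes, with 11 lower and 1 higher at all 3 times. Immediate early genes had a median of 0.26 over 29 genes, and -0.09, 0.55 and 0.20 by time, with 1 at an unadjusted p under 0.05. In the list of growth hormone, thyroid and steroid response the median was 0.08 over 21 genes, and Socs2, a growth hormone target, was at 89.9, 112 and 82.9 in young and 62.0, 56.7 and 32.7 in older rats.

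Genes of smooth muscle and myofibroblasts had a median of 0.19 over 10 genes, and -0.16, 0.74 and 0.35 by time, with 2 higher at an unadjusted p under 0.05 and 2 higher without overlap. Their summed signal was 10640 to 15407 in young and 16558 to 21751 in older rats, so that the sums did not overlap. Acta2 and Des, bright members of this sum, were the 2 higher without overlap. Des is also in the list of skeletal muscle, and the sum without it was not taken. At 3 days 6 of the 10 genes were lower in older rats. Other lists of structural and energy genes had medians close to 0. Medians were 0.06 for 26 genes of the fibrous matrix, 0.08 for 16 endothelial genes, 0.00 for 21 adipocyte genes, 0.11 for 14 genes of Schwann cells and myelin and 0.07 for 29 genes of neurons and axons. They were -0.04 for 37 genes of the respiratory chain, 0.03 for 34 genes of fatty acid use, 0.14 for 23 genes of glycolysis and 0.13 for 17 genes of sterol synthesis. In none of these 9 lists did more than 2 members have an unadjusted p under 0.05 in either direction. Signalling and immune lists were as close to 0. Medians were -0.01 for 16 genes of the insulin-like growth factor system, 0.00 for 38 genes of TGF-beta and BMP signalling, 0.02 for 9 genes of the Wnt pathway, 0.00 for 27 genes of antigen presentation, 0.02 for 4 B lymphocyte genes and 0.01 for 17 genes of T lymphocytes and natural killer cells. In these 6 as well, at most 2 members in a direction had such a p.

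The adult arrays share the young arrays of this comparison, so their values are given beside the older ones without a further test. Adult rats at 3 days, 1 week and 2 weeks had Acp5 at 738, 3574 and 16956, Car2 at 235, 807 and 1863, Bglap at 4217, 5681 and 12507 and Tfrc at 134, 222 and 352. For Acp5, Car2, Bglap and Tfrc the adult level at each time lay between the young and the older level. Adult minus young was -1.46, -1.70, -1.06 and -1.32 for these genes, where older minus young was -2.26, -2.07, -1.40 and -1.76. Not every named gene kept this order. Slc40a1 in adult rats, at 196, 512 and 324, was under the older level at each time. Mmp9 at 2 weeks was at 11985 in adult rats, above both 9450 in young and 8330 in older rats. No probe set passed for adult minus young, with 209 higher and 241 lower at an unadjusted p under 0.05.

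The older minus young difference of the first 2 weeks was also tested against that of 4 and 6 weeks, times at which the young arrays had raised 3' to 5' ratios. By limma 6 probe sets passed with a difference higher early than late (0.0686%) and 16 with a lower one (0.183%). Most of the 6, Dpp4, Dnase1l3 and Tesc among them, had a mean signal at or next to the floor of 20 in the first 2 weeks. These 3 genes differed then by 0.00, -0.01 and -0.05. Gys2, among the lower ones, was also at the floor. The dimmer probe set of Car2 was among the lower ones, with -2.79 in the first 2 weeks and -0.99 at 4 and 6 weeks.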

How the data were processed

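RNA was measured on 18 Affymetrix rat genome arrays, of which 6, the older and young arrays of 3 days, 1 and 2 weeks, make up the comparison. The deposited values are linear signal intensities that the authors computed with Affymetrix Microarray Suite, which brings each array to a common mean. This was checked on the trimmed means. The number of arrays limits the precision. Of 8799 probe sets, 59 manufacturer controls were left out. Signals below 20 were set to 20 before log2, and nothing else was normalized. Among 8740 probe sets tested, 7006 had 1 gene symbol in the platform annotation, 308 several and 1426 none. The RefSeq table of GRCr8 held 4718 of the 4737 gene identifiers.

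Older minus young was tested with limma 3.58.1 in R 4.3.3 (lmFit, eBayes with trend, Benjamini-Hochberg adjustment at 0.05) on 9 arrays, young, adult and older at 3 times, with age and time as terms. The time term pairs the arrays, and 4 residual degrees of freedom were left. Differences are older minus young with SE from this fit. The script was tested on simulated data with 200 changed probe sets, all drawn from those with a mean signal above 200. The difference between the first 2 weeks and 4 and 6 weeks was tested on 15 arrays. Figures were drawn with matplotlib in Python.

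The probe set with 1 symbol and the highest mean log2 signal stands for a gene. Named were the 10 lowest p in each direction (mean signal of at least 200, 1 direction at all times), up to 4 members of each of 37 lists and the genes that passed for the difference between phases. Other list members, including those that stayed level, were named after their values were seen. The members and lists were chosen with earlier results of these data known. Alternatives were other floors, scalings and filters, arrays or times left out, no pairing, the methods' t-test and the change from the own 0 time control.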

Additional observations from a re-analysis of the deposited data

Results flagged for a closer look

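The older minus young difference of the first 2 weeks differed from that of 4 and 6 weeks by the interaction test for 22 probe sets, 6 in the higher direction (0.0686%) and 16 in the lower direction (0.183%) by limma. Most of the 6 and some of the 16 were at or next to the floor of 20 in the first 2 weeks. Taking each gene by its brightest probe set, Mmp14, Dab2 and Glg1 are described here, together with a dimmer probe set of Car2. Mmp14, a membrane collagenase, had a difference between the phases of -2.62 ± 0.24 log2 (adjusted p = 0.0219 by limma), from 0.06 in the first 2 weeks and 2.68 at 4 and 6 weeks. Dab2, an adaptor of endocytosis, had -1.84 ± 0.20 (adjusted p = 0.0287 by limma), from -0.06 and 1.77. Glg1, a Golgi glycoprotein, had -1.31 ± 0.17 (adjusted p = 0.0494 by limma), from -0.08 and 1.23. The dimmer probe set of Car2, of the osteoclast list, had -1.80 ± 0.22 (adjusted p = 0.0439 by limma), from -2.79 and -0.99, while its brighter probe set had -1.21 ± 0.34 (adjusted p = 0.257 by limma). The young arrays of 4 and 6 weeks had Gapdh 3' to 5' ratios of 3.48 and 6.57, against at most 1.77 on the arrays of the first 2 weeks, and their part in this was not tested.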

How the results depend on the processing

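Over all probe sets no call was made with a floor of 1, quantile or median scaling, no intensity trend, the 6 arrays alone, any array or time left out (0 to 0 calls), or the methods' t-test, which had 103 higher and 124 lower at an unadjusted p under 0.05 on log2 signals, 98 and 122 on linear ones, and 0 after Benjamini-Hochberg adjustment. Without the time term, that is without the pairing or replicate block, 0 were called and 118 higher and 189 lower had such a p. An offset of 50 called 0 higher and 2 lower, both Car2. Tests over brighter probe sets called 1 and 6, and leaving out probe sets at the floor, chosen after seeing the data, 0 and 1. With 15 arrays 1 higher (Gsta1) and 2 lower (Car2, Slc40a1) were called.

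As the change from the own 0 time control, 218 of 8740 were called higher and 315 lower, and 20.7% had an unadjusted p under 0.05. In this fit the single 0 time array of each age is fitted exactly. Its p-values hold no spread between 0 time arrays, so these calls do not measure whether that difference would repeat. Directions turned there because the 0 time difference, from 1 array per age, is subtracted. Turned to higher were Acp5 1.20, Ctsk 3.04, Itgb3 0.081, Ckb 0.058, Atp6v0c 0.20, Bglap 0.50, Spp1 2.55, Phex 0.78, Col1a1 3.07, Alpl 0.95, Col2a1 2.71, Col10a1 2.24, Col11a1 4.96, Mmp13 2.14, Mmp16 2.51, Mt3 1.23, Casp2 2.83, Ptn 2.74, Nrp1 0.48 and Ptprz1 1.05. Turned to lower were Src -1.94, Gsta1 -0.16, Hspb1 -0.22, Des -1.14, Myf6 -0.14, Chrna1 -0.34, Pkm -0.28, Plec -0.57, Eif3b -0.23 and Camk2b -0.16. With arrays or times left out Src ran from -0.017 (without the young 1-week array) to 0.58, Alpl from -0.16 to 0.038 (without the 2-week arrays) and Mmp14 from -0.072 (without the young 1-week array) to 0.27. Alpl was 0.11 under quantile normalization and 0.045 as the mean of its probe sets, and Plin2 was -0.074 as the mean of its probe sets. The cause was not tested. Of 70 genes followed, 38 kept their direction throughout.

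The difference between the phases, 6 higher and 16 lower, gave 52 lower with a floor of 1, 6 lower under quantile normalization, 77 lower over brighter probe sets, and 1 higher and 0 lower with 10 arrays only. With a time left out it ranged from 1 to 121 higher and from 0 to 105 lower, 121 and 105 without 4 weeks and 34 and 77 without 6 weeks. Mmp14, Dab2 and Glg1 lost their calls with 10 arrays only and with the 1-week or 2-week arrays left out. Dab2 and Glg1 also lost them without 3 days, Mmp14 and Dab2 without 6 weeks, and Glg1 without 4 weeks and under quantile normalization. The dimmer probe set of Car2 kept its call over brighter probe sets and lost it under every other alternative, with adjusted p from 0.0576 to 0.316 by limma. The number of arrays limits all of these results.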

Other observations

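Subunits of the vacuolar proton pump, chosen after the value of Atp6v0c was seen, were read without it. Of the 7 other measured genes of the family 6 had a lower mean in older rats, 3 were lower at all 3 times (11.6% of all probe sets were), 2 had an unadjusted p under 0.05 and the median was -0.72. Atp6v1b2 was at 683, 955 and 1116 in young rats, with a difference of -1.33 ± 0.27. Atp6v1a was at 2004, 3331 and 2779 in young rats, with a difference of -0.96 ± 0.32.

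Clock genes were read after Bmal1 was seen among the higher genes, where its older signals had carried it past the brightness cutoff. Bmal1, the activator of the daily clock, was at 115, 175 and 215 in young rats, with differences of 1.07, 1.04 and 0.46. Dbp and Nr1d2, which follow the clock in the opposite phase, had differences of -1.62 and -0.99 at 3 days, -1.32 and -2.06 at 1 week, and 1.09 and 0.87 at 2 weeks. Of 9 clock genes measured Bmal1 was the only one with 1 direction at all 3 times.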
